A study of Mus musculus with 36 samples.

Results

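Halofuginone was set against BtdCPU in mouse embryonic fibroblasts (connective tissue cells cultured from embryos) that lack the kinase PERK, written PERK -/- in the labels. The libraries were chosen by the genotype and treatment in the labels, which gave 3 halofuginone and 3 BtdCPU libraries, 6 of the 36 bulk RNA-seq libraries of the series. The series crosses 2 genotypes, WT and PERK -/-, with 6 treatments, and its question is whether another kinase of the integrated stress response can be engaged by a compound when PERK is missing. Beside the 6 libraries, 3 PERK -/- libraries given the solvent DMSO served as the untreated level. The same pair of compounds was also compared in 3 and 3 WT libraries, and in 3 and 3 PERK -/- libraries that received thapsigargin as well, a blocker of the calcium pump of the endoplasmic reticulum (ER). The labels give no dose, no time and no batch, and do not say how Perk was deleted, whether a genotype is 1 clone, or whether replicates were separate cultures. A difference between the compounds therefore cannot be told apart from a difference in dose or exposure, and the p-values measure only the spread between these samples, which may be technical.

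The integrated stress response begins when a kinase phosphorylates the translation factor eIF2 alpha. General translation then falls while the mRNA of the transcription factor ATF4 is translated better, and ATF4 switches on genes for amino acid supply and stress adaptation. Halofuginone blocks the prolyl-tRNA synthetase activity of the protein made from Eprs, and the uncharged tRNA that builds up activates the kinase GCN2 (gene Eif2ak4). BtdCPU is used as an activator of the kinase HRI (gene Eif2ak1), which also receives signals from stressed mitochondria through OMA1 and DELE1. PERK (gene Eif2ak3) is the kinase of the ER arm. The compounds thus enter the same pathway through different kinases, and they are not described as structural relatives.

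The halofuginone, BtdCPU and DMSO libraries of PERK -/- cells held 35034352 to 36311344 counts each, and 16065 genes were tested. In a principal component analysis of the 18 PERK -/- libraries, the first component held 40.1% of the variance. Halofuginone libraries lay at 50.2 to 68.2 on it, BtdCPU libraries at -17.3 to -9.63 and DMSO libraries at -31.4 to -28.3. The BtdCPU libraries thus lay nearer to DMSO than to halofuginone along the main axis. All 12 fibroblast markers were tested, with summed levels of 16855 to 19750 CPM (counts scaled to the size of each library) under BtdCPU and 15968 to 16881 under halofuginone. Of the other cell types, neural markers (4 of 6 tested) summed to 194 to 211 CPM under BtdCPU and 166 to 187 under halofuginone, with Sox2 and Olig2 at 0 counts. Macrophage markers (3 of 7 tested) summed to 9.85 to 11.4 and 4.69 to 5.71 CPM, and muscle markers (2 of 6) to 6.66 to 9.77 and 2.83 to 2.94 CPM, with Lyz2, Tyrobp, Myod1 and Myog at 0. Epithelial markers (4 of 7) summed to 1.52 to 2.67 and 3.27 to 4.8 CPM with Epcam at 0, the adipocyte marker Fabp4 reached 4.23 and 3.3 CPM, and endothelial and pluripotency markers summed to at most 1.32 CPM. The part of these markers in the results was not tested, and in bulk samples fewer cells of a type and less RNA per cell cannot be told apart.

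The targeted gene was lower in the knockout. Eif2ak3 stood at 8.62, 9.22 and 8.09 CPM in the 3 BtdCPU libraries and 10.1, 7.66 and 10.1 CPM in the 3 halofuginone libraries of PERK -/- cells. In WT cells it stood at 16.4, 27.1 and 17.2 CPM with BtdCPU and 29.3, 32.7 and 55.5 CPM with halofuginone, so all 6 PERK -/- libraries were below all 6 WT libraries. The PERK -/- libraries with thapsigargin held 17.8 to 35.4 CPM, which overlaps the WT range. The table has 1 value per gene and does not show which exons the remaining reads came from.

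Halofuginone and BtdCPU gave widely different transcriptomes in PERK -/- cells. Of 16065 genes, 5793 differed between them (36.1%, edgeR quasi-likelihood test, Benjamini-Hochberg adjusted p under 0.05), 2881 higher with halofuginone (17.9%) and 2912 lower (18.1%). A difference of at least 1 on the log2 scale was found for 735 higher genes (4.58%) and 678 lower genes (4.22%). The median log2 difference (halofuginone minus BtdCPU) over all tested genes was 0 and the median absolute difference 0.382. With a scaling to library size alone the split of 5766 calls was 2640 higher and 3126 lower. Each group of genes below is read against these shares.

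**Figure D1:**
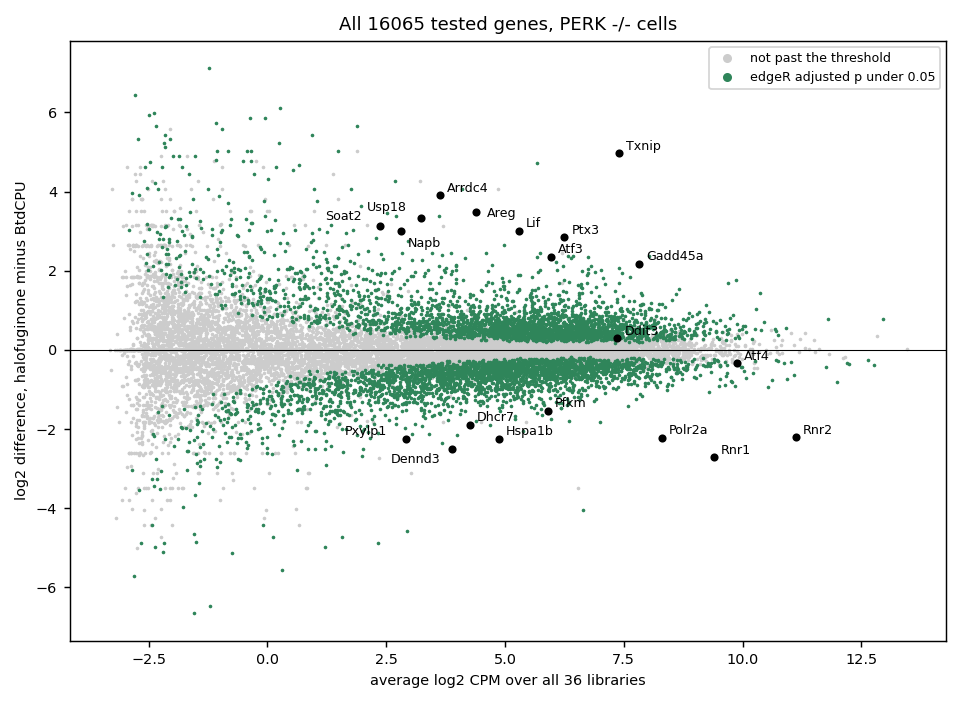
Each point is 1 of the 16065 tested genes, with its average log2 CPM over all 36 libraries on the x axis and its log2 difference, halofuginone minus BtdCPU in PERK -/- cells, on the y axis; green points passed the edgeR threshold. Txnip (4.97) stands at the top among the named genes and Rnr1 (-2.71) at the bottom, while Atf4 (-0.34) and Ddit3 (0.29) lie near 0.

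For the 3 kinases named above, no difference at the mRNA level passed the test. Eif2ak4 (GCN2) stood at 76.4, 80.8 and 87.2 CPM with BtdCPU and 71.8, 72.7 and 70.9 CPM with halofuginone, a log2 difference of -0.18 (SE 0.126). Eif2ak1 (HRI) differed by -0.09 (SE 0.0931) and Eif2ak3 by 0.11 (SE 0.19), and for all 3 edgeR's adjusted p was between 0.273 and 0.706. The relay from mitochondria to HRI gave -0.07 for Oma1 and 0.24 for 0610009O20Rik, the entry for Dele1, neither past the threshold (edgeR adjusted p = 0.665 and 0.118). The Dele1 entry passed with the replicate block (0.24, adjusted p = 0.0221) and in a fit of the PERK -/- libraries only (0.25, adjusted p = 0.0285). In this list of 10 genes, the 2 that rose with halofuginone were the subunits that direct phosphatase to eIF2 alpha and end the response. Ppp1r15a (GADD34), the stress-induced one, was at 144, 117 and 123 CPM with BtdCPU and 340, 354 and 348 CPM with halofuginone. Its DMSO level was 30.7 to 35.9 CPM. Both compounds thus stood above DMSO, and every halofuginone library was above every BtdCPU library (log2 difference 1.44, SE 0.214, edgeR adjusted p = 3.55e-06). Ppp1r15b, the constitutive subunit, was at 63.3, 67.6 and 66.4 CPM with BtdCPU and 101, 104 and 98.1 CPM with halofuginone (0.62, SE 0.0905, adjusted p = 2.6e-06), and its BtdCPU level was within the DMSO range of 60.3 to 66.7 CPM or just above it.

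Of the 10 transcription factors of the response, Atf3, Nupr1, Cebpg and Atf5 were higher with halofuginone, Atf4 was lower and 5 did not pass. Atf4, whose product drives the response, stood at 1210, 993 and 1020 CPM with BtdCPU, 870, 869 and 808 CPM with halofuginone and 533 to 646 CPM with DMSO. It was the factor of the list that fell, and its groups did not overlap (-0.34, SE 0.107, edgeR adjusted p = 0.0132). The call was lost without halofuginone replicate 3 (-0.29, adjusted p = 0.0804) or BtdCPU replicate 1 (-0.24, adjusted p = 0.125). Ddit3 (CHOP), a factor tied to stress-induced death, was at 105, 95.8 and 94.8 CPM with BtdCPU and 119, 128 and 115 CPM with halofuginone, against 18.5 to 22.2 CPM with DMSO. Its groups did not overlap, but the difference of 0.29 (SE 0.203) did not pass (edgeR adjusted p = 0.28), and it passed when only the 6 libraries were fitted (0.30, adjusted p = 0.0101). Trib3, a pseudokinase that feeds back on ATF4, was at 171, 146 and 136 CPM with BtdCPU and 203, 208 and 170 CPM with halofuginone. Here the groups overlapped and the difference of 0.36 (SE 0.261, adjusted p = 0.299) did not pass, though it did without a filter on low counts (0.36, adjusted p = 0.0162), in the 6 libraries alone (0.37, adjusted p = 0.00896) and in the 18 PERK -/- libraries (0.37, adjusted p = 0.0489).

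Atf3, a stress-induced repressor and activator of the ATF family, showed the greatest rise among the 10 factors. It stood at 15, 10.2 and 11.7 CPM with BtdCPU and 55.7, 55 and 77.6 CPM with halofuginone, against 2.19 to 2.92 CPM with DMSO. The 3 treatments formed separate steps without overlap (halofuginone minus BtdCPU 2.36, SE 0.199, edgeR adjusted p = 1.75e-10). Nupr1, a chromatin-associated stress protein, was at 59.8, 49.8 and 35.4 CPM with BtdCPU and 120, 114 and 121 CPM with halofuginone (1.29, SE 0.217, adjusted p = 2.1e-05). Cebpg, the partner with which ATF4 dimerizes, differed by 0.84 (SE 0.138) and Atf5, another factor whose translation the pathway controls, by 0.53 (SE 0.116). The list median was 0.48, and the libraries of the compounds did not overlap for 8 of the 10, against 51.3% of all tested genes.

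The promoters of 4 members are printed here because their transcripts stood at different steps above DMSO under the compounds and hold letters that stress-activated bZIP factors are known to bind. Each runs 5′ to 3′ over 300 bases that end 50 bases after the gene's start (RefSeq, GRCm38.p6), and capitals mark a match on either strand to TGATGNAA, the core of the composite element of C/EBP and ATF factors, or to TGACGTCA, the cyclic AMP response element. The regions are chr1:191183284-191183583 (minus strand) for Atf3, chr7:45526219-45526518 (minus strand) for Ppp1r15a, chr2:119350992-119351291 (plus strand) for Chac1 and chr3:50443564-50443863 (minus strand) for Slc7a11.
Atf3: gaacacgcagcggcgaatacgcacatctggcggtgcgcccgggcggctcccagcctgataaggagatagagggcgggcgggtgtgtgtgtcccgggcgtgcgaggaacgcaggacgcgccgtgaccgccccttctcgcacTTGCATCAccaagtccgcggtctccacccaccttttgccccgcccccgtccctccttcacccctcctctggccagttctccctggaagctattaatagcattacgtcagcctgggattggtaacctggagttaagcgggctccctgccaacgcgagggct
Ppp1r15a: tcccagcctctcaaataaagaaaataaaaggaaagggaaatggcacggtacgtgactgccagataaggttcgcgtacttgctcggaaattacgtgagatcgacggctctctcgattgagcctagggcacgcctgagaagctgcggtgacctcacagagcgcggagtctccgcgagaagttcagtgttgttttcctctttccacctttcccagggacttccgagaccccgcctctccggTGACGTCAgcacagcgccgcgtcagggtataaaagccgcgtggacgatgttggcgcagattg
Chac1: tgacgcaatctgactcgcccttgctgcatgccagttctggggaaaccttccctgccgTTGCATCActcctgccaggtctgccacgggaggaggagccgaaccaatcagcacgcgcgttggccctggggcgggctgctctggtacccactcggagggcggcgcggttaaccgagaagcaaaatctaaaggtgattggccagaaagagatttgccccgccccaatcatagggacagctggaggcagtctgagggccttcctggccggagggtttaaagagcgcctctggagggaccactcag
Slc7a11: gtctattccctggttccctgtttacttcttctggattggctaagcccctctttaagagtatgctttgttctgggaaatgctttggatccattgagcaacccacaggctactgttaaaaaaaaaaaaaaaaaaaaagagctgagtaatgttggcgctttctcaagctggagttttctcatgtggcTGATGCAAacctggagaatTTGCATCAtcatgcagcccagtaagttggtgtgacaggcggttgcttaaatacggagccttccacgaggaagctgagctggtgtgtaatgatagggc
The match in Atf3 begins 110 bases before the start and reads TTGCATCA, the motif on the other strand. In Chac1 the same letters begin 193 bases before the start, and Slc7a11 holds TGATGCAA 66 and TTGCATCA 47 bases before it. Ppp1r15a holds TGACGTCA 12 bases before its start and no TGATGNAA in this window. The motifs cannot match each other at the same position. Of 27025 mouse promoters of this length, 1096 (4.06%) hold TGATGNAA and 507 (1.88%) hold TGACGTCA. Of the 68 tested members of 6 lists (the transcription factors, amino acid synthesis, tRNA synthetases, amino acid transporters, growth brakes and secreted factors), 52 have a promoter sequence, 15 of these (28.8%) hold TGATGNAA and 0 hold TGACGTCA. Of the 30 of them that were higher with halofuginone, 14 hold TGATGNAA. A match is a description of letters and not a binding site shown in these cells.

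**Figure D2:**
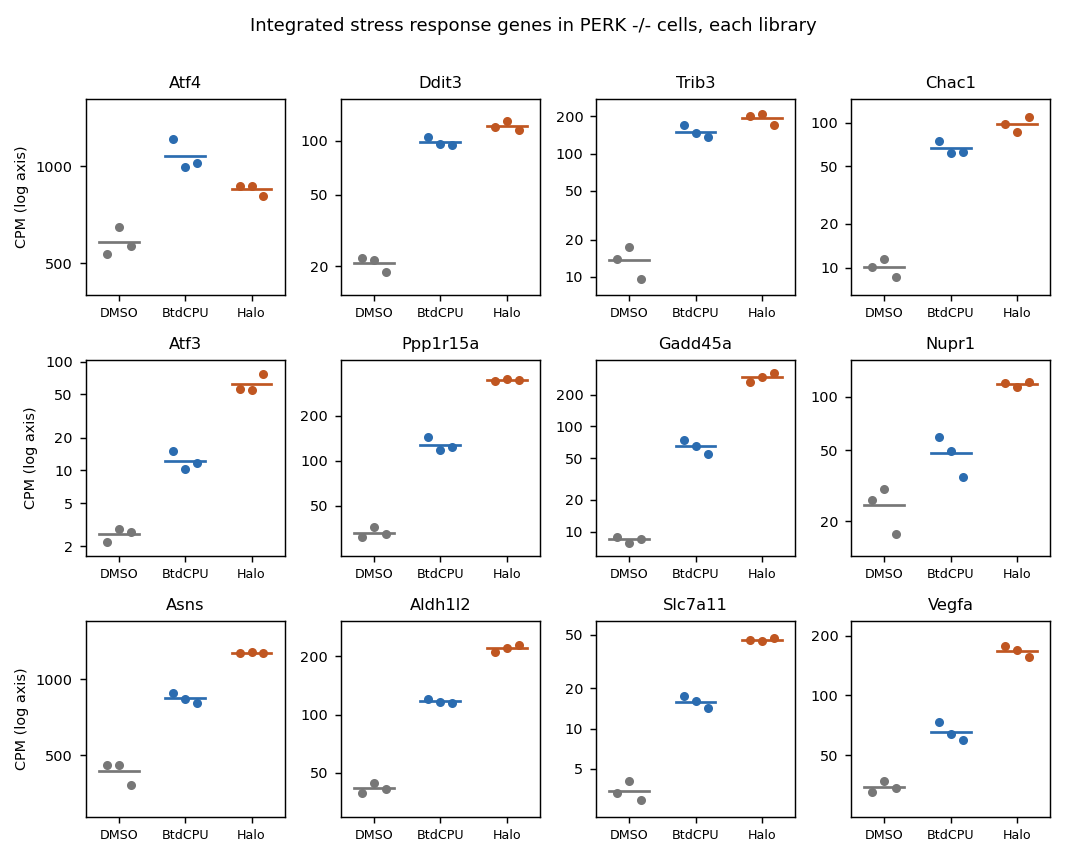
Each panel is 1 gene, with TMM-scaled CPM on a log axis, 1 point per library and a line at the mean of the 3 DMSO, 3 BtdCPU and 3 halofuginone (Halo) libraries of PERK -/- cells. Atf4 is lower with halofuginone than with BtdCPU, Ddit3 and Trib3 are close, and Chac1 is moderately higher (86.3 to 109 against 62 to 74.4 CPM). Atf3 (55 to 77.6 against 10.2 to 15 CPM) and Gadd45a (265 to 322 against 54.8 to 74.7 CPM) lie far apart.

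Enzymes that make amino acids were higher with halofuginone. In the list of serine, asparagine and proline synthesis, 9 of 14 tested genes were higher, 0 were lower and 5 did not pass, with a median of 0.50. Asns, asparagine synthetase, was at 380 to 459 CPM with DMSO, 886, 838 and 804 CPM with BtdCPU and 1270, 1280 and 1270 CPM with halofuginone. All 3 treatments were separate (halofuginone minus BtdCPU 0.59, SE 0.103, edgeR adjusted p = 3.28e-05). Cth, which makes cysteine, was at 111, 92.8 and 101 CPM with BtdCPU and 202, 205 and 204 CPM with halofuginone (1.00, SE 0.226, adjusted p = 0.000724). Aldh1l2, a mitochondrial folate enzyme, was at 120, 116 and 115 against 211, 220 and 228 CPM (0.91, SE 0.149, adjusted p = 1.52e-05). In each of these enzymes the halofuginone libraries were all above the BtdCPU libraries. The transaminases Gpt2 and Got1 differed by 0.86 and 0.68, and Aldh18a1, the first enzyme of proline synthesis, by 0.56. The serine pathway proper was closer to even. Psat1 passed at 0.32 (SE 0.111, adjusted p = 0.0258) but not without halofuginone replicate 2 (0.28, adjusted p = 0.0904), BtdCPU replicate 1 (0.33, adjusted p = 0.0505) or BtdCPU replicate 3 (0.29, adjusted p = 0.0873), nor with library-size scaling (0.28, adjusted p = 0.0559). Phgdh, the first enzyme of that pathway, gave 0.16 (adjusted p = 0.245), and Mthfd2, of mitochondrial one-carbon metabolism, 0.21 (adjusted p = 0.16, 0.0401 in the 6 libraries alone and 0.0253 in the 18 PERK -/- libraries).

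The cytosolic aminoacyl-tRNA synthetases, which load amino acids onto tRNA, were mostly higher with halofuginone: 14 of 20 were higher, 1 was lower and 5 did not pass, with a median of 0.46. Eprs, whose prolyl-tRNA synthetase activity halofuginone blocks, was at 739, 667 and 647 CPM with BtdCPU and 1040, 999 and 1170 CPM with halofuginone (0.64, SE 0.101, edgeR adjusted p = 7.61e-06). Its DMSO level was 426 to 453 CPM, so both compounds were above it. Wars, for tryptophan, showed the greatest rise of the list, from 99.2, 102 and 106 CPM to 191, 219 and 192 CPM (0.97, SE 0.147). Tars, for threonine, differed by 0.80 and Aars, for alanine, by 0.49. Qars, for glutamine, was the member that fell, from 186, 193 and 187 CPM with BtdCPU to 135, 142 and 118 CPM with halofuginone (-0.52, SE 0.0818, adjusted p = 7.92e-06). Its BtdCPU libraries lay just under the DMSO range of 203 to 215 CPM.

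Amino acid transporters followed the same direction, with 7 of 11 higher, 0 lower and a median of 0.67. Slc7a11, the cystine importer, was at 2.93 to 4.08 CPM with DMSO, 17.4, 16.1 and 14.1 CPM with BtdCPU and 46, 44.7 and 47.6 CPM with halofuginone. The treatments did not overlap (halofuginone minus BtdCPU 1.54, SE 0.239, edgeR adjusted p = 6.8e-06). The subunits of the leucine transporter, Slc7a5 and Slc3a2, differed by 0.79 (SE 0.146) and 0.61 (SE 0.154), the arginine and lysine importer Slc7a1 by 0.84 and the glycine transporter Slc6a9 by 0.67 (SE 0.197).

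Among 8 genes that slow growth or consume glutathione, 3 were higher and 1 was lower. Chac1, which degrades glutathione, was at 8.66 to 11.4 CPM with DMSO, 74.4, 62 and 62.8 CPM with BtdCPU and 98.4, 86.3 and 109 CPM with halofuginone (0.56, SE 0.196, edgeR adjusted p = 0.0239). Its groups did not overlap, but the call was lost without halofuginone replicate 3 (0.49, adjusted p = 0.0934), BtdCPU replicate 2 (0.53, adjusted p = 0.074) or BtdCPU replicate 3 (0.54, adjusted p = 0.0728). The sestrins, which restrain mTORC1, moved apart. Sesn2 rose from 61.6, 60.4 and 60.7 CPM to 99.8, 108 and 85.4 CPM (0.68, SE 0.0847, adjusted p = 1.89e-07), while Sesn1 fell from 25.2, 22.8 and 25.4 CPM to 17, 15.1 and 15.9 CPM (-0.61, SE 0.179, adjusted p = 0.00716). Eif4ebp1, a repressor of cap-dependent translation, passed only at the threshold (0.34, adjusted p = 0.05). It did not pass without halofuginone replicate 1 (0.36, adjusted p = 0.0749) or 2 (0.23, adjusted p = 0.236) or BtdCPU replicate 1 (0.34, adjusted p = 0.0951), 2 (0.40, adjusted p = 0.0522) or 3 (0.31, adjusted p = 0.139), nor with library-size scaling (0.31, adjusted p = 0.086).

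Secreted factors of the response were higher with halofuginone in 4 of 5 cases. Fgf21, a metabolic hormone, was near 0 with DMSO, at 1.2, 1.11 and 1.38 CPM with BtdCPU and at 3.75, 4.94 and 6.12 CPM with halofuginone (2.00, SE 0.44, edgeR adjusted p = 0.00057). Gdf15, the ligand of the hindbrain receptor GFRAL, stayed low but went from 0.589, 0.475 and 0.543 CPM to 1.75, 1.79 and 2 CPM (1.78, SE 0.425, adjusted p = 0.00129). Vegfa, the growth factor of blood vessels, was at 73, 63.8 and 59.5 CPM against 178, 170 and 156 CPM (1.36, SE 0.141, adjusted p = 7.99e-09), and Adm2 differed by 1.23. In all 4 the libraries of the compounds were separate. Stc2, a secreted glycoprotein, differed by 0.37 and did not pass (adjusted p = 0.143), although it did without a filter (0.0389), in the 6 libraries (0.00898) and in the 18 PERK -/- libraries (0.00434).

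Against DMSO, which both compounds share as control libraries, these genes stood as follows in edgeR's fit, where 6785 genes (42.2%) passed with halofuginone, 3413 higher (21.2%) and 3372 lower (21%), and 577 (3.59%) with BtdCPU, 410 higher (2.55%) and 167 lower (1.04%). Atf4 was higher by 0.55 with halofuginone and 0.88 with BtdCPU, and Ddit3 by 2.54 and 2.25. Asns was higher by 1.56 and 0.97, Atf3 by 4.59 and 2.24, and Gadd45a by 5.13 and 2.95. All of these passed under both compounds. The readouts thus gave no single ranking of the compounds: Atf4 was higher with BtdCPU, and Atf3 and Asns were higher with halofuginone. Of the response readouts, Atf4 alone was called higher with BtdCPU, a call lost without halofuginone replicate 3 or BtdCPU replicate 1. Chac1 (0.56) and Psat1 (0.32) were called on the halofuginone side, and these calls too were lost without some single libraries. Ddit3 (0.29) and Trib3 (0.36) had the same sign and did not pass.

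Genes of growth arrest and p53 targets were mostly higher with halofuginone, 14 of 20 tested against 3 lower, with a median of 1.03. Gadd45a, which slows the cycle under stress, was at 7.83 to 8.93 CPM with DMSO, 74.7, 65.4 and 54.8 CPM with BtdCPU and 265, 295 and 322 CPM with halofuginone (2.18, SE 0.219, edgeR adjusted p = 4.74e-09). Cdkn1a (p21), the inhibitor of cyclin-dependent kinases, was at 6.82, 5.89 and 3.69 CPM with BtdCPU and 22.8, 23 and 20.3 CPM with halofuginone (2.01, SE 0.151, adjusted p = 2.56e-11). The BtdCPU libraries were near the DMSO range of 3.39 to 5.1 CPM for Cdkn1a but far above DMSO for Gadd45a. Btg2, an antiproliferative p53 target, differed by 1.99, the kinase gene Plk2 by 1.76 and the death gene Pmaip1 (NOXA) by 1.74. Gadd45b and Gadd45g differed by 1.66 and 2.04. Phlda3, which restrains AKT, went the other way, from 14.6, 17 and 15.4 CPM to 10.9, 12.1 and 7.84 CPM (-0.61, SE 0.159, adjusted p = 0.003), and lost its call without halofuginone replicate 3 (-0.43, adjusted p = 0.0535).

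Immediate early genes, which answer growth factor and stress kinases within minutes, were higher with halofuginone in 16 of 23 cases and lower in 3, with a median of 0.72. Egr1 was at 25.2, 23.1 and 29.2 CPM with BtdCPU and 134, 81.1 and 96.5 CPM with halofuginone (2.01, SE 0.215, edgeR adjusted p = 1.56e-08). The DMSO libraries, at 32.8 to 41.6 CPM, were above all BtdCPU libraries and below all halofuginone libraries. Myc was at 119 to 134 CPM with DMSO, 220, 221 and 210 CPM with BtdCPU and 497, 459 and 493 CPM with halofuginone (1.16, SE 0.187). Ier3 differed by 1.43 and Jun, a subunit of AP-1, by 0.72. Dusp4, a phosphatase that dampens ERK, was the other way round, at 15.5, 14.2 and 12.5 CPM with BtdCPU and 5.75, 8.13 and 7.6 CPM with halofuginone (-0.98, SE 0.217, adjusted p = 0.000602). Here it was the BtdCPU libraries that stood above DMSO (5.95 to 6.51 CPM).

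Chemokines and cytokines of the IL-6 family were higher with halofuginone in 11 of 17 cases and lower in 1, with a median of 1.70. Lif, a cytokine that acts through gp130, was at 7.39, 7.74 and 7.33 CPM with BtdCPU and 55, 58 and 68.5 CPM with halofuginone (3.01, SE 0.149, edgeR adjusted p = 2.23e-15), and its DMSO level (7.05 to 9.09 CPM) was that of BtdCPU. Il6 reached 1.59 to 1.86 CPM with halofuginone against 0.106 to 0.272 CPM with BtdCPU (2.98, SE 0.662). Cxcl1, which attracts neutrophils, was at 15.7, 20.3 and 12.1 against 48.4, 63 and 52 CPM (1.76, SE 0.421). Cxcl2, another such chemokine, had 0 counts in every BtdCPU library and 0.189, 0.302 and 0.0549 CPM with halofuginone (edgeR adjusted p = 0.0383), a call lost without halofuginone replicate 1 or 2 or any 1 BtdCPU library (adjusted p 0.064 to 0.105). Tnfaip3 (A20), a brake on NF-kappaB, differed by 1.99 (SE 0.278). Cx3cl1, a membrane-bound chemokine, fell from 121, 121 and 153 CPM to 75.1, 91.2 and 65.2 CPM (-0.77, SE 0.149, adjusted p = 0.000129). Higher with halofuginone too was Ptx3, a soluble pattern-recognition protein, which went from 16.9, 16.9 and 25.9 CPM to 120, 131 and 177 CPM (2.84, SE 0.265). The growth factor gene Areg also rose (3.48, SE 0.436) but was scarce, at 0.241, 0.211 and 0.244 CPM with BtdCPU and 2.78, 3.02 and 2.08 CPM with halofuginone. In WT cells it held 84.2 to 153 CPM with halofuginone.

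Of 23 interferon-stimulated genes tested, 7 were higher with halofuginone, 1 was lower and 15 did not pass, with a list median of 1.00. Usp18, which limits interferon signalling, was at 0.669, 0.423 and 0.815 CPM with BtdCPU and 4.94, 7.39 and 6.97 CPM with halofuginone (3.33, SE 0.924, edgeR adjusted p = 0.00518). Isg15, the substrate of USP18, was at 9.9, 9.27 and 9.12 CPM against 18.9, 23.3 and 15 CPM. Its groups did not overlap, but 1.01 (SE 0.452) did not pass (adjusted p = 0.079), while it passed without a filter on low counts (4e-09), with the replicate block (1.42e-05), in the 6 libraries (8.75e-05) and in the 18 PERK -/- libraries (3.34e-06). Ifit2 fell by 0.49 (adjusted p = 0.0184) but not without halofuginone replicate 2 (-0.39, adjusted p = 0.102), BtdCPU replicate 1 (-0.46, adjusted p = 0.0539) or BtdCPU replicate 2 (-0.42, adjusted p = 0.0817).

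Txnip and Arrdc4, arrestin-family genes that restrain glucose uptake and are known targets of the glucose-sensing factors MondoA and ChREBP, showed opposite positions relative to DMSO under the compounds. Txnip was at 20.6, 19 and 23.2 CPM with DMSO, 8.48, 9.91 and 6.3 CPM with BtdCPU and 252, 181 and 339 CPM with halofuginone. All BtdCPU libraries were below and all halofuginone libraries above DMSO, and the difference between the compounds was 4.97 (SE 0.379, edgeR adjusted p = 3.25e-11). Arrdc4 was at 0.589, 0.449 and 0.842 CPM with BtdCPU and 10.1, 8.05 and 10.1 CPM with halofuginone (3.90, SE 0.235, adjusted p = 3.51e-13). Against DMSO, Txnip fell by 1.35 with BtdCPU and rose by 3.62 with halofuginone, and Arrdc4 fell by 0.97 and rose by 2.93. The entry Gm15441, which overlaps Txnip and was named after its values were seen, differed by 4.73. The use of strand in the counting is not given in the sources used here, so reads of Gm15441 and Txnip cannot be told apart.

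The aryl hydrocarbon receptor gene and its targets gave 5 higher and 0 lower of 7, with a median of 1.70. Ahr, the ligand-activated receptor, was at 6.13, 6.87 and 6.46 CPM with BtdCPU and 20.2, 16.9 and 26.2 CPM with halofuginone (1.70, SE 0.263, edgeR adjusted p = 6.28e-06). Cyp1b1, its oxidase target, was at 7.29 to 8.63 CPM with DMSO, 1.69, 2.48 and 2.5 CPM with BtdCPU and 9.09, 7.88 and 11.2 CPM with halofuginone. Here BtdCPU was below DMSO (-1.86) and halofuginone overlapped it (0.21, adjusted p = 0.4), which left 2.08 between the compounds (SE 0.211, adjusted p = 6.03e-09). Tiparp, another target, was at 51, 50.2 and 50.8 against 193, 154 and 253 CPM (1.98, SE 0.217). Cyp1a1 also passed and is given no fold, because its BtdCPU counts lie near the floor of 3.

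**Figure D3:**
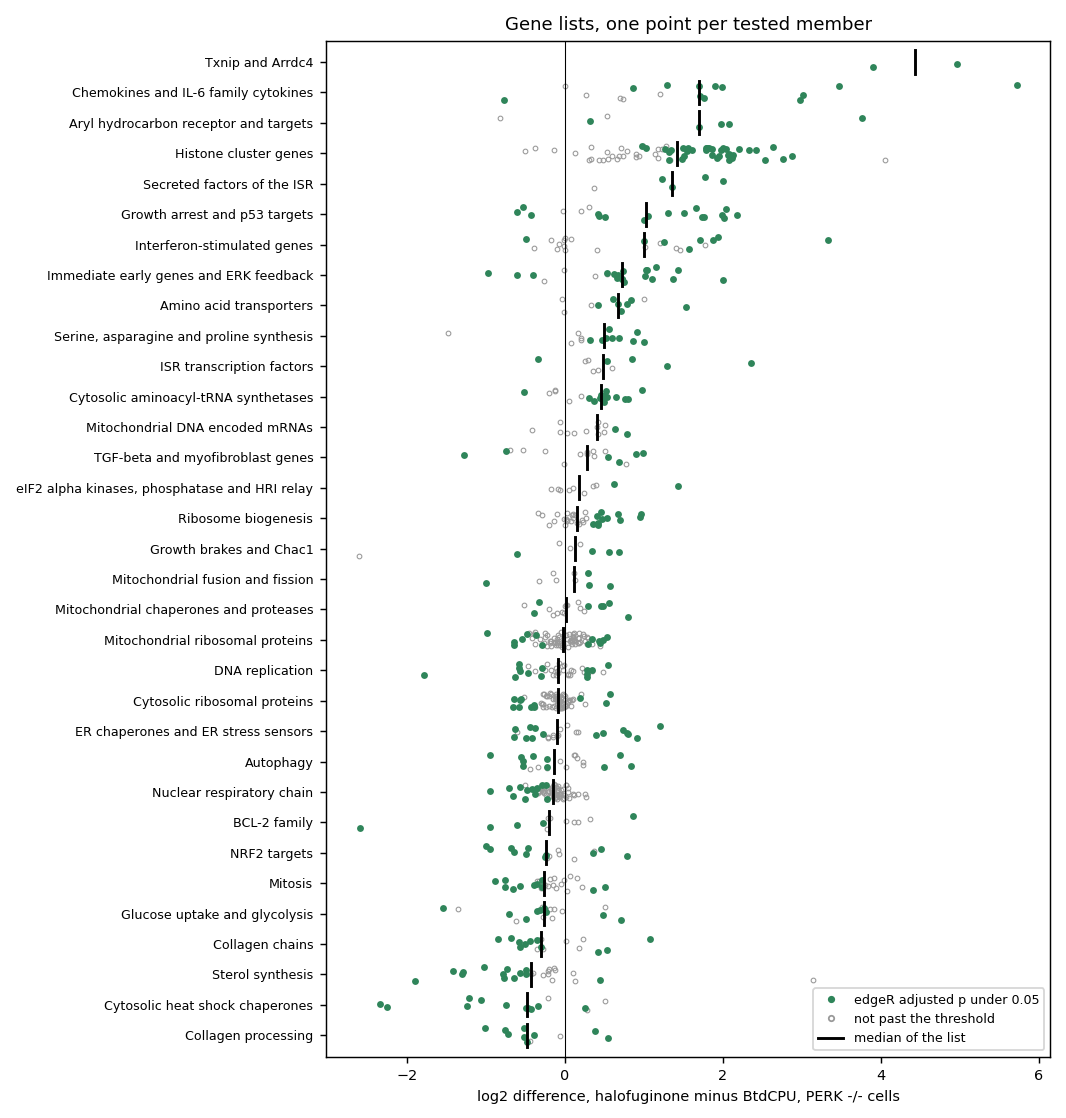
Each point is a tested member of 1 of the 33 gene lists, placed by its log2 difference, halofuginone minus BtdCPU in PERK -/- cells (x axis); green points passed the edgeR threshold and the bar is the median of the list. The medians run from 4.44 for Txnip and Arrdc4 down to -0.48 for collagen processing and cytosolic heat shock chaperones, against 0 over all genes.

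Histone cluster genes were higher with halofuginone in 38 of 66 cases and lower in 0, with a median of 1.41. Hist1h1c, a linker histone, was at 28.2, 23.8 and 20.3 CPM with BtdCPU and 101, 68.1 and 83.5 CPM with halofuginone (1.80, SE 0.238, edgeR adjusted p = 5.46e-07), against 26.5 to 33.3 CPM with DMSO. Hist1h2bc was at 10.6, 12 and 7.44 against 42.6, 35.2 and 40.2 CPM (1.97, SE 0.237). Many of these genes were scarce: 30 of the 66 had an average log2 CPM below 0, and 6 of those passed, among them Hist1h2bb, at 0.0272 to 0.134 CPM with BtdCPU and 0.467 to 0.674 CPM with halofuginone. Most histone mRNAs have no poly(A) tail, and per the labels the libraries went through rRNA depletion and mRNA selection steps, whose part here was not tested. Near-identical copies within the clusters make single members uncertain. Slbp, whose product binds the end of histone mRNA, did not differ (-0.08, SE 0.118, adjusted p = 0.634).

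Replication and mitosis genes held fewer higher than lower calls, unlike the histones. Of 36 replication genes 5 were higher and 8 lower (median -0.09), and of 28 mitotic genes 2 were higher and 9 lower (median -0.26). Dna2, a nuclease and helicase, was at 25.2, 27.4 and 25.2 CPM with BtdCPU and 8.5, 8.24 and 5.84 CPM with halofuginone (-1.78, SE 0.254, edgeR adjusted p = 1.84e-06). Rfc4, of the clamp loader, rose by 0.55 (adjusted p = 0.0141) and did not pass without BtdCPU replicate 3 (0.44, adjusted p = 0.0911). Kif20a, a kinesin of cytokinesis, was at 323, 356 and 315 against 178, 209 and 150 CPM (-0.89, SE 0.14, adjusted p = 8.01e-06), and the mitotic kinase gene Aurkb differed by -0.76. Ndc80, of the kinetochore, rose by 0.50 (adjusted p = 0.00212). In the replication list, 5 of 36 is below the 17.9% of all genes that were higher, and 8 of 36 a little above the 18.1% that were lower.

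Polr2a, the large subunit of RNA polymerase II, was among the 8 greatest falls at adequate level. It was at 333 to 469 CPM with DMSO, 358, 336 and 398 CPM with BtdCPU and 81.1, 83.4 and 70.9 CPM with halofuginone. BtdCPU libraries lay within or near the DMSO range and halofuginone libraries far below it (-2.21, SE 0.228, edgeR adjusted p = 7.27e-09). Polr2b, the next subunit, named after its values were seen, differed by -0.39 (SE 0.076). Other genes at the extremes were Soat2, which esterifies cholesterol (3.14), and Napb, of vesicle fusion (3.00), on the higher side. Both were scarce with BtdCPU. Soat2 was at 1.26, 0.634 and 1.22 against 8.98, 7.42 and 11.1 CPM, and Napb at 1.85, 1.27 and 1.25 against 11.5, 8.54 and 15 CPM. On the lower side were Dennd3, a Rab exchange factor, at 8.19, 9.72 and 12.2 against 1.65, 1.51 and 2.14 CPM (-2.50, SE 0.29), Pxylp1, a xylose phosphatase (-2.24), and Tep1, of the telomerase and vault particles (-2.15). Tep1 was scarce in PERK -/- cells, at 1.5, 1.43 and 0.733 CPM with BtdCPU and 0.324, 0.247 and 0.247 CPM with halofuginone. Its average met the level condition through WT libraries, which held 36.9 to 45.7 CPM with BtdCPU.

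In the mitochondrial genome the largest differences were in 2 entries named Rnr1 and Rnr2, the names of its ribosomal RNAs. They were identified by name only, since they have no match in the RefSeq table. Rnr1 was at 423, 474 and 301 CPM with DMSO, 1740, 1360 and 1660 CPM with BtdCPU and 224, 232 and 269 CPM with halofuginone. BtdCPU libraries were all above DMSO and halofuginone libraries all below it, and the compounds differed by -2.71 (SE 0.238, edgeR adjusted p = 3.35e-10). Rnr2 was at 737 to 1080 CPM with DMSO, 4240, 2780 and 3610 CPM with BtdCPU and 747, 658 and 892 CPM with halofuginone (-2.21, SE 0.288, adjusted p = 4.42e-07), where the halofuginone libraries overlapped DMSO. The libraries were depleted of ribosomal RNA per the labels, so what remains of these entries can depend on that step, whose part was not tested. The 13 mRNAs of the same genome did not share the pattern: 2 were higher with halofuginone, 0 were lower and the median was 0.40. CYTB, of complex III, was at 2670, 2260 and 2260 against 4350, 4010 and 4030 CPM (0.78, SE 0.258, adjusted p = 0.0171), a call lost without BtdCPU replicate 2 (0.76, adjusted p = 0.0544) or 3 (0.76, adjusted p = 0.0581). ND4L rose by 0.63 (adjusted p = 0.0327), which was lost without halofuginone replicate 1 (0.54, adjusted p = 0.117) or 3 (0.61, adjusted p = 0.0824), without BtdCPU replicate 2 (0.59, adjusted p = 0.095) or 3 (0.64, adjusted p = 0.0731) and with library-size scaling (0.60, adjusted p = 0.0511). ND1, of complex I, gave -0.06 (SE 0.253).

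**Figure D4:**
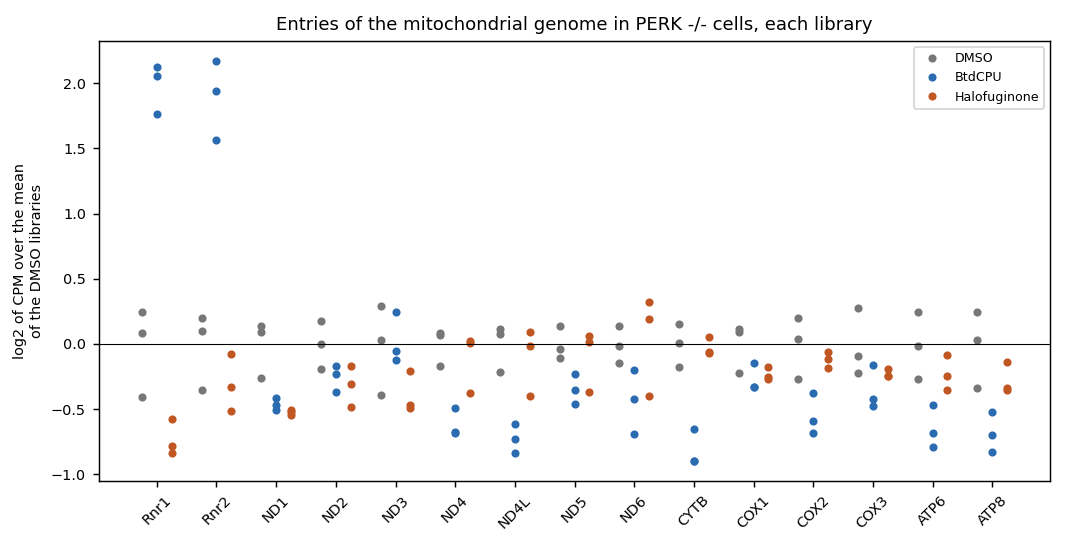
For the 15 entries of the mitochondrial genome, each point is 1 PERK -/- library, as log2 of its CPM over the mean of the 3 DMSO libraries (y axis), in gray for DMSO, blue for BtdCPU and orange for halofuginone. The BtdCPU points of Rnr1 and Rnr2 lie far above all others, while those of CYTB, ND4 and ND4L lie below the halofuginone points.

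Nuclear genes for mitochondria changed little in number. Of 74 nuclear respiratory chain genes, 0 were higher, 13 were lower and 61 did not pass, with a median of -0.16. While 13 of 74 is close to the 18.1% of all genes that were lower, 0 of 74 is below the 17.9% that were higher. Uqcrh, a small subunit of complex III, was at 126, 117 and 102 CPM with BtdCPU and 54.6, 63.6 and 59.7 CPM with halofuginone (-0.96, SE 0.229, edgeR adjusted p = 0.00133), and Ndufv3, of complex I, fell by 0.71. Of 77 mitochondrial ribosomal protein genes 6 were higher and 7 lower. Mrpl34 fell by 0.99 (SE 0.181), and Mrpl1 rose by 0.53 (adjusted p = 0.0138) but not without halofuginone replicate 3 (0.49, adjusted p = 0.0547), BtdCPU replicate 2 (0.48, adjusted p = 0.0592) or BtdCPU replicate 3 (0.48, adjusted p = 0.0604). Among 19 chaperones and proteases of the organelle, 5 were higher and 2 lower. Lonp1, the matrix protease and a known ATF4 target, was at 237 to 265 CPM with DMSO, 378, 394 and 400 CPM with BtdCPU and 673, 689 and 668 CPM with halofuginone (0.79, SE 0.116, adjusted p = 2.68e-06). The 3 treatments were separate. Hspa9, the matrix HSP70, differed by 0.56 (SE 0.0955), Hspd1, the matrix HSP60, by -0.03 (SE 0.12), and Htra2, a protease of the intermembrane space, by -0.40 (SE 0.104).

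Of 10 fusion and fission genes, 3 were higher and 1 was lower. Mtfr1, a fission regulator, was at 180, 172 and 156 CPM with BtdCPU and 249, 260 and 249 CPM with halofuginone (0.57, SE 0.0874, edgeR adjusted p = 4.95e-06). Mtfp1, a protein of the inner membrane linked to fission, fell by 1.00 (adjusted p = 0.0311), a call lost without halofuginone replicate 3 (-0.70, adjusted p = 0.199), BtdCPU replicate 2 (-0.99, adjusted p = 0.0681) or BtdCPU replicate 3 (-0.90, adjusted p = 0.098).

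Sterol synthesis was lower with halofuginone, with 12 of 25 genes lower and 1 higher and a median of -0.43. Both compounds lay below DMSO, with list medians of -1.31 for halofuginone and -0.90 for BtdCPU, which share the DMSO libraries. Dhcr7, the last step to cholesterol, was at 31.1 to 40.8 CPM with DMSO, 16.1, 20 and 19.3 CPM with BtdCPU and 4.69, 6.24 and 3.92 CPM with halofuginone (-1.90, SE 0.22, edgeR adjusted p = 6.02e-08). Hmgcs1, early in the pathway, was at 295 to 343, then 96.1, 134 and 140, then 46.1, 52 and 40 CPM in the same order (-1.43, SE 0.188). For these genes the 3 treatments formed separate descending steps. Nsdhl fell by 1.30 and Insig1, which retains the SREBP complex in the ER, by 0.79 (SE 0.201), while Idi1 gave -0.21 (adjusted p = 0.527). Pmvk was the higher one (0.45, adjusted p = 0.0206) and lost its call without halofuginone replicate 3 (0.41, adjusted p = 0.0761) or BtdCPU replicate 1 (0.44, adjusted p = 0.0561).

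Collagen genes were more often lower than higher with halofuginone, a compound known from other work for reducing collagen synthesis. Of 17 collagen chains 3 were higher and 8 lower (median -0.31), and of 11 processing genes 2 were higher and 7 lower (median -0.48). P4ha2, a prolyl hydroxylase, was at 63, 70.8 and 70.7 CPM with BtdCPU and 37.5, 36.1 and 27.4 CPM with halofuginone (-1.02, SE 0.115, edgeR adjusted p = 3.98e-08). Serpinh1, the collagen chaperone, fell by 0.52 (SE 0.103) and Lox, the crosslinking oxidase, by 0.72 (SE 0.166), whereas Plod2, a lysyl hydroxylase, rose by 0.54 (SE 0.109). Of the chains, Col5a3 was at 12.1, 10.5 and 10.8 against 21, 24.6 and 24.8 CPM (1.07, SE 0.197). Col1a1, the main fibrillar chain, was at 2320, 2590 and 3500 against 1980, 2180 and 2030 CPM (-0.44, adjusted p = 0.0474). Its call was lost without halofuginone replicate 1 (-0.41, adjusted p = 0.128), 2 (-0.47, adjusted p = 0.0695) or 3 (-0.41, adjusted p = 0.129), without BtdCPU replicate 2 (-0.48, adjusted p = 0.0622) or 3 (-0.24, adjusted p = 0.365), and with the size factors of DESeq2 (-0.43, adjusted p = 0.0526). Col15a1 (-0.86, adjusted p = 0.048) was lost without halofuginone replicate 2 (-0.83, adjusted p = 0.104) or 3 (-0.65, adjusted p = 0.219) or BtdCPU replicate 1 (-0.78, adjusted p = 0.122) or 3 (-0.76, adjusted p = 0.139). Col3a1 gave -0.36 and did not pass (adjusted p = 0.116), but passed without a filter (0.0107), with the replicate block (0.00756), in the 6 libraries (0.0176) and in the 18 PERK -/- libraries (0.0109).

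In the list of TGF-beta and myofibroblast genes, 4 of 17 were higher and 2 lower. Smad3, a signal transducer of TGF-beta, was at 25.7, 26 and 23.8 CPM with BtdCPU and 47.7, 50.9 and 51.3 CPM with halofuginone (0.99, SE 0.157, edgeR adjusted p = 8.67e-06). Tgfb3, a ligand, went the other way, from 18.2, 24.1 and 21.6 to 9.01, 9.86 and 7.43 CPM (-1.28, SE 0.196, adjusted p = 5.49e-06). With DMSO, Smad3 (29.4 to 32.6 CPM) lay between the compounds and Tgfb3 (27.8 to 33.2 CPM) above both.

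Cytosolic heat shock chaperones were lower with halofuginone in 10 of 14 cases and higher in 1, with a median of -0.48. Hspa1b, an inducible HSP70, was at 22.2 to 32.3 CPM with DMSO, 13.4, 18.1 and 12.8 CPM with BtdCPU and 3.05, 4.48 and 1.78 CPM with halofuginone (-2.25, SE 0.284, edgeR adjusted p = 2.55e-07). Its near-identical neighbour Hspa1a gave -2.34 (SE 0.309), and reads may be split between them. The constitutive Hspa8 was at 681, 746 and 739 against 348, 383 and 304 CPM (-1.07, SE 0.0809, adjusted p = 2.88e-11). Hsph1, an exchange factor of HSP70, fell by 1.24 and the small heat shock gene Cryab by 1.22. For Hspa1b and Hspa8 the order was DMSO, then BtdCPU, then halofuginone, without overlap. Hspa4 was the higher one (0.25, adjusted p = 0.0273), a call lost without halofuginone replicate 3 (0.24, adjusted p = 0.0777), without BtdCPU replicate 3 (0.23, adjusted p = 0.0951) and without a filter (0.25, adjusted p = 0.13).

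Of the 25 genes of the ER list, 7 were higher with halofuginone, 7 lower and 11 did not pass. Among those higher was the sensor gene Atf6, which went from 57.3, 53.8 and 54.3 CPM to 122, 119 and 140 CPM (1.20, SE 0.166, edgeR adjusted p = 1.03e-06), while Ern1 (IRE1) differed by 0.91, Xbp1 by 0.80 and Dnajb9 by 0.74. Hspa5 (BiP), the main ER chaperone, was at 1490 to 1670 CPM with DMSO, 1600, 1560 and 1720 CPM with BtdCPU and 2670, 2690 and 3020 CPM with halofuginone (0.78, SE 0.141, adjusted p = 5.79e-05). BtdCPU overlapped DMSO. Among those lower, the disulfide isomerase gene Pdia4 went from 338, 346 and 427 to 227, 239 and 242 CPM (-0.65, SE 0.142) and Calr, calreticulin, fell by 0.64 (SE 0.119). Pdia6 (-0.44) and Pdia3 (-0.28) were also lower, while Hsp90b1 gave -0.21 and did not pass (edgeR adjusted p = 0.18).

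Of 20 NRF2 targets, which defend against oxidants, 3 were higher and 8 lower. Nfe2l2, the gene of NRF2 itself, rose from 70.6, 69.8 and 68.4 CPM to 124, 114 and 123 CPM (0.79, SE 0.0888, edgeR adjusted p = 3.54e-08). Gsta4, a glutathione transferase, fell from 5.97, 4.52 and 7.36 to 2.56, 2.39 and 3.92 CPM (-1.01, SE 0.222), and the classic target Nqo1 gave -0.23 (adjusted p = 0.173). Hmox1, heme oxygenase, gave -0.24 (adjusted p = 0.258), passed in the 6 libraries (0.034) and in the 18 PERK -/- libraries (0.0475), and under either compound stood above the DMSO range of 51.5 to 56.9 CPM, at 115 to 123 CPM with BtdCPU and 94.9 to 108 CPM with halofuginone. Nfe2l2 and Gsta4 thus differed in direction.

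Glycolysis genes gave 2 higher and 7 lower of 20. Pfkm, the muscle isoform of phosphofructokinase, was at 93.4, 92.5 and 103 CPM with BtdCPU, overlapping DMSO (92.5 to 98.5 CPM), and at 34.2, 37.1 and 28.1 CPM with halofuginone (-1.54, SE 0.128, edgeR adjusted p = 1.41e-10). Pfkfb3, which makes the activator of that enzyme, rose by 0.70 (SE 0.174). Pfkm overlaps Senp1 in the annotation, and their reads cannot be told apart without strand.

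Genes of ribosome assembly were higher with halofuginone in 11 of 33 cases and lower in 0, with Wdr43 at 480, 441 and 449 against 885, 802 and 986 CPM (0.96, SE 0.127, edgeR adjusted p = 5.4e-07) and Nop58 at 0.95. The cytosolic ribosomal proteins themselves gave 3 higher and 8 lower of 76, fewer in each direction than the share of all genes, with Rpl10a at 0.58 and Rpl37a at -0.66 as the extremes among those that passed.

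In the BCL-2 family 1 of 12 was higher and 4 lower. Mcl1, an inhibitor of cell death, was at 97.9, 102 and 101 CPM with BtdCPU and 182, 184 and 181 CPM with halofuginone (0.86, SE 0.0854, edgeR adjusted p = 3.44e-09), while the effector Bok fell by 0.95 (SE 0.142). Bmf, a promoter of death, reached at most 0.407 CPM with BtdCPU and 0.11 CPM with halofuginone (adjusted p = 0.0146), and its call was lost without halofuginone replicate 1 (adjusted p = 0.0784). Of 20 autophagy genes 3 were higher and 7 lower. Sqstm1 (p62), a cargo receptor, was at 345 to 419 CPM with DMSO, 799, 777 and 711 CPM with BtdCPU and 1170, 1170 and 1360 CPM with halofuginone (0.70, SE 0.132), and Atg12, of the conjugation system, rose by 0.83 (SE 0.123). Ulk1, the initiating kinase, fell from 22.7, 26.5 and 30.6 to 15.8, 13.3 and 12 CPM (-0.96, SE 0.19), so receptor and initiator went in opposite directions.

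The gap between the compounds was also compared between genotypes, whose cells differed in Y-linked genes too (given below). A difference between genotypes thus cannot be assigned to PERK alone. For this the same contrast was read in WT cells. There 10339 genes differed (64.4%), and the contrast itself differed between genotypes for 5140 genes (32%, edgeR interaction), 2619 with a higher value in PERK -/- (16.3%) and 2521 with a lower one (15.7%). In the WT group, BtdCPU replicate 2 stood apart in stress genes (Ppp1r15a at 69.4 CPM against 231 and 193 CPM, Atf3 at 13 against 33.6 and 32.1 CPM). Halofuginone replicate 3 was higher in some others (Hist1h2bn at 54.8 CPM against 11.6 and 10.7 CPM) and lower in several amino acid genes. Among these were Psat1 (432 against 634 and 668 CPM), Aldh1l2 (131 against 220 and 216 CPM) and Gpt2 (115 against 190 and 225 CPM). Without that BtdCPU library the count was 4935 genes and without that halofuginone library 4219. The 23 genes named here for this interaction kept their calls when any 1 of the 12 libraries was left out.

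Amino acid genes had a greater halofuginone excess in PERK -/- than in WT cells. In the synthesis list, 10 of 14 genes had a higher value in PERK -/- than in WT and 0 a lower one, and the list median was 0.50 in PERK -/- and -0.24 in WT. The WT median was not computed without WT halofuginone replicate 3, which was low for several of these genes. Cth was at 92.5, 92.2 and 105 CPM with BtdCPU and 72.3, 62.1 and 27.6 CPM with halofuginone in WT, so the order of the compounds was the reverse of that in PERK -/- (interaction 1.84, edgeR adjusted p = 5.42e-05). Slc6a9 was at 181, 120 and 171 against 78, 85.9 and 39.9 CPM in WT (interaction 1.87, adjusted p = 7.68e-06). For both genes WT libraries were lower with halofuginone and PERK -/- libraries higher. Aldh1l2 (interaction 1.13), Phgdh (0.98), Slc7a5 (0.95) and Trib3 (1.21) differed between genotypes in the same direction. Atf4 (-0.02), Ddit3 (-0.03) and Atf3 (-0.18) gave interactions near 0 that did not pass, with SEs of 0.151, 0.286 and 0.268 and adjusted p of 0.971, 0.979 and 0.658.

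The PERK -/- and WT cells also differed in genes of the Y chromosome. Ddx3y, an RNA helicase gene there, was at 116, 112 and 118 CPM with BtdCPU and 335, 331 and 347 CPM with halofuginone in WT, and in PERK -/- at 0, 0.158 and 0 CPM with BtdCPU and 0 in all 3 halofuginone libraries. Its interaction (-5.58, edgeR adjusted p = 0.00732) and its difference within PERK -/- (adjusted p = 0.046) rest on the counts of 1 PERK -/- library, and neither passed without BtdCPU replicate 2 (adjusted p = 1). The difference within PERK -/- was also lost with library-size scaling (adjusted p = 0.0553) or without any 1 halofuginone library (0.0931 to 0.109). The Y-linked genes Eif2s3y, Kdm5d and Uty, named after their values were seen, reached at most 0.0273 CPM in the DMSO, BtdCPU and halofuginone libraries of PERK -/- cells and were at 27.2 to 114 CPM in those of WT cells. The loss of PERK and this difference between the cells cannot be told apart in the comparison of genotypes.

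For histones, immediate early genes, and chemokines and cytokines the gap between the compounds was greater in WT, while other genes named here went either way. Histones had a median difference of 3.49 in WT against 1.41 in PERK -/-, and 42 of 66 had a lower value in PERK -/- (0 higher). Hist1h1c was at 6.46, 7.97 and 6.83 CPM with BtdCPU and 429, 352 and 799 CPM with halofuginone in WT (interaction -4.41, edgeR adjusted p = 1.92e-10). Among immediate early genes 13 of 23 had a lower value in PERK -/- and 1 a higher one, with Jun at -1.51, and among the chemokines and cytokines 8 of 17 were lower, with Tnfaip3 at -3.05 and Lif at -1.95. Lif reached 156 to 209 CPM with halofuginone in WT and 55 to 68.5 CPM in PERK -/-, and 4.88 to 7.38 and 7.33 to 7.74 CPM with BtdCPU. Gadd45g (-2.98) also had a lower value in PERK -/- and a greater gap in WT. Dennd3 (-2.31) had a lower value in PERK -/- too, but its gap was greater there (-2.50) than in WT (-0.20, edgeR adjusted p = 0.512). Stmn4, which binds tubulin, was at 0 to 0.0989 CPM with BtdCPU and 21 to 23.2 CPM with halofuginone in WT, and at 0.696 to 0.788 and 2.25 to 6.25 CPM in PERK -/-. Pfkm fell further in WT, from 69.2, 84.8 and 68.7 to 7.83, 6.01 and 5.03 CPM (interaction 2.02), as did Rnr1 (1.13) and Rnr2 (1.67), and 13 of 20 NRF2 targets had a higher value in PERK -/-, with Hmox1 at 1.11. Cyp1b1 was at 15, 24 and 17.9 CPM with BtdCPU and 9.94, 8.27 and 14 CPM with halofuginone in WT, the reverse of PERK -/- (interaction 2.90, adjusted p = 1.01e-08). Ptx3 differed by 2.47 in the interaction and was close between the compounds in WT, at 34.2 to 66.4 and 57.5 to 69.2 CPM. Acot1, an acyl-CoA hydrolase, went from 48.8 to 55 CPM down to 5.15 to 6.04 CPM in WT and was at most 1.7 CPM in the PERK -/- libraries of both compounds (interaction 3.84), and Kif21b (3.28) and Cdsn (3.12) also had the opposite order in WT. Within PERK -/- the Acot1 difference of 0.59 (adjusted p = 0.0285) was not kept without halofuginone replicate 1 (0.47, adjusted p = 0.135) or 2 (0.51, adjusted p = 0.102), without BtdCPU replicate 1 (0.57, adjusted p = 0.0742) or 3 (0.58, adjusted p = 0.0713), in the 6 libraries (0.59, adjusted p = 0.0984) or in the 18 PERK -/- libraries (0.60, adjusted p = 0.0738).

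With thapsigargin the contrast of the compounds in PERK -/- cells again gave 5874 genes (36.6%), and its difference from the contrast without thapsigargin passed for 325 genes (2.02%), 150 with a higher value under thapsigargin (0.934%) and 175 with a lower one (1.09%). That count moved with single libraries. It was 203 without halofuginone replicate 3, 163 and 191 without BtdCPU replicates 2 and 3, 128 without replicate 1 of halofuginone with thapsigargin and 124 without replicate 3 of BtdCPU with thapsigargin. With library-size scaling 280 genes passed, 173 higher and 107 lower, a share of 61.8% higher against 46.2%. The genes named below for this interaction kept their calls when any 1 of the 12 libraries was left out, except Ddit3, Dhcr7, Tep1, Ctgf and Car6.

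The difference between the compounds was smaller under thapsigargin for Atf3 and Ppp1r15a. Atf3 was at 48.8, 49.3 and 55.3 CPM with BtdCPU and 77.6, 88.3 and 92.1 CPM with halofuginone under thapsigargin, so the groups stayed separate but the difference was 0.75 in place of 2.36 (edgeR interaction -1.61, adjusted p = 0.00078). Ppp1r15a was at 417, 406 and 456 against 344, 407 and 367 CPM, which overlap (interaction -1.63, adjusted p = 0.00185). In both genes the BtdCPU libraries with thapsigargin were above those without it, while halofuginone libraries were less changed. The interaction was -1.35 for Gadd45a and -1.12 for Aldh1l2. Slc6a9 reversed, from 0.67 without thapsigargin to -0.71 with it (edgeR adjusted p = 0.00463, interaction -1.38). Its levels under thapsigargin were 273, 279 and 338 CPM with BtdCPU and 175, 195 and 172 CPM with halofuginone. Slc3a2 reversed as well, at 2050, 2320 and 2430 CPM with BtdCPU against 1090, 1230 and 1140 CPM with halofuginone (interaction -1.59). Sqstm1 reversed too, at 1600, 1600 and 1830 against 1140, 1190 and 1250 CPM, so that a difference of 0.70 became -0.49 (interaction -1.18, adjusted p = 0.000441). Ddit3, which had not passed without thapsigargin, was lower with halofuginone under it, at 374, 413 and 400 against 195, 252 and 201 CPM (-0.87, adjusted p = 0.000976; interaction -1.16, adjusted p = 0.026). Hmox1 was on the lower side with halofuginone in both settings, and its gap widened from -0.24 to -1.84, at 347, 350 and 428 against 95.5, 115 and 103 CPM (interaction -1.60). Of the 20 tRNA synthetases 6 had a lower value under thapsigargin and 0 a higher one.

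Of 25 sterol genes, 7 had a higher value under thapsigargin in the interaction, 0 a lower one and 18 did not pass. Hmgcs1 was at 100, 125 and 102 CPM with BtdCPU and 150, 192 and 120 CPM with halofuginone under thapsigargin (interaction 1.92, edgeR adjusted p = 7.1e-05), with overlapping groups. Insig1 moved likewise (1.68), and its halofuginone libraries with thapsigargin were all above the BtdCPU libraries with it. Other members were lower with halofuginone in both settings. Dhcr7, the last enzyme of one route to cholesterol, was at 11.6, 14.9 and 14.3 against 9.19, 9.68 and 7.21 CPM under thapsigargin (-0.65, adjusted p = 0.016; interaction 1.25, adjusted p = 0.0232), and Nsdhl, a sterol dehydrogenase, gave -0.84 (adjusted p = 0.000175) with an interaction of 0.46 that did not pass (adjusted p = 0.425). The interactions of Ddit3 and Dhcr7 lost the call on leaving out 1 library, Ddit3 in 6 of 12 cases (adjusted p up to 0.081) and Dhcr7 in 8 (up to 0.0883). Among 23 immediate early genes 7 had a higher value and 0 a lower one, such as Jun at 1.47 and Phlda1 at 1.27. Jun was at 22, 26.5 and 18.9 against 97.9, 99 and 111 CPM with thapsigargin, below its levels without it under either compound.

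The greatest interactions by size were led by Tep1 (2.43), Ctgf, a matricellular growth factor (2.07), and Cebpd (2.06) on the higher side and by Cdsn, a cell adhesion gene (-2.56), Kif21b, a kinesin (-2.45), and Car6, a secreted carbonic anhydrase (-2.43), on the lower side. For Cdsn and Kif21b the order of the compounds reversed. The differences were 1.745 and 1.506 without thapsigargin and -0.815 and -0.940 with it (edgeR adjusted p = 0.029 and 0.0118 with it). Cx3cl1 gave 1.59, since it was lower with halofuginone without thapsigargin and higher with it (18.9 to 20.9 against 32.4 to 37.3 CPM). Cebpd was at 3.59, 3.51 and 3.13 CPM with BtdCPU and 25, 19.6 and 20.3 CPM with halofuginone under thapsigargin. Tep1 was scarce in both settings. It was at 0.733 to 1.5 CPM with BtdCPU and 0.247 to 0.324 CPM with halofuginone without thapsigargin. With thapsigargin the levels were 0.405 to 0.589 and 0.382 to 0.847 CPM, which overlap. The interaction of Tep1 was lost without replicate 1 of halofuginone with thapsigargin (2.03, adjusted p = 0.0679), that of Ctgf without replicate 3 of BtdCPU with thapsigargin (1.91, adjusted p = 0.0528), and that of Car6 without BtdCPU replicate 2 (-2.36, adjusted p = 0.0599), replicate 1 of halofuginone with thapsigargin (-2.42, adjusted p = 0.0611) or replicate 3 of BtdCPU with thapsigargin (-2.06, adjusted p = 0.0871).

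**Figure D5:**
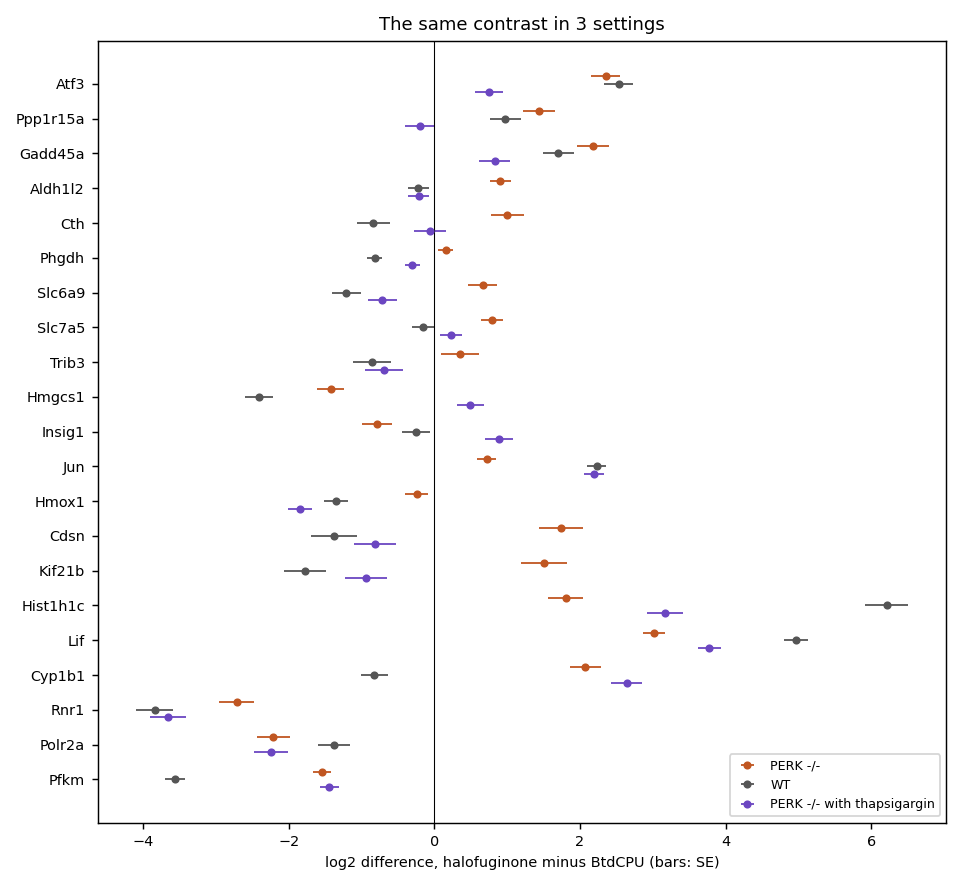
For 21 genes, the points give the log2 difference, halofuginone minus BtdCPU (x axis), in PERK -/- cells, in WT cells and in PERK -/- cells with thapsigargin, with bars of 1 SE from the edgeR fit. Cth and Slc6a9 lie above 0 in PERK -/- and below 0 in WT, Hmgcs1 lies below 0 in both and above 0 with thapsigargin, and Lif and Polr2a keep their side in all 3.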

How the data were processed

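Per the labels, RNA from a Quick-RNA kit went into strand-specific DNBSEQ libraries, with rRNA depletion and mRNA selection both named. The authors deposited 1 table of estimated counts per gene, unscaled, for 36930 entries. In it 0.025 takes the place of 0 (50.6% of values), and 2.69% of other values have decimals. The submitters' processing notes name DESeq and the build GRCm39 without a role. The aligner, counting tool, annotation and use of strand are not given in the sources used here.

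From that table, 27 entries named by a date number (0.206% to 0.278% of a library) were left out, entries sharing a symbol were summed and counts were rounded. All 36 libraries (32454257 to 37178107 counts) entered 1 fit in edgeR 4.0.16 (R 4.3.3) with 12 group means: filterByExpr by group, TMM scaling, robust quasi-likelihood test, Benjamini-Hochberg adjustment over 16065 genes, threshold 0.05, 24 residual degrees of freedom, common dispersion 0.0199. SE is the log2 difference divided by the square root of F. CPM is TMM-scaled, and differences are log2, halofuginone minus BtdCPU. The procedure was tested on simulated data. Within groups, libraries differed by more than counting noise (chi-square per degree of freedom of at least 9.66). It reached 124 in WT (BtdCPU replicates 2 and 3) and 41.1 in PERK -/- (halofuginone replicates 2 and 3), and all groups shared 1 estimate of the spread.

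The members and lists (33 lists, 789 genes, 783 tested, 5 under the filter and 1 without an entry) were chosen with earlier results of these data known. Named genes were fixed readouts, the 8 greatest differences each way (average log2 CPM of at least 2, groups without overlap, over 3 counts in the lower group, Gm and Rik entries passed over), the extremes of each list, the 3 greatest interactions each way (same level, Gm and Rik entries passed over), and further list members picked with their values in view. Of 158 genes given with values, 156 matched the RefSeq table of GRCm38.p6, which supplied promoters and neighbours, and 29 overlap another tested gene, among them Ddit3, Wars, Gadd45a, Hspa5, Hspd1 and Tiparp, so their reads may be shared. Alternatives were DESeq2's size factors, library-size scaling, no filter, DESeq2 1.42.0, a replicate block, fits of fewer libraries and leaving out each library.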

Additional observations from a re-analysis of the deposited data

Results flagged for a closer look

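The contrast of halofuginone with BtdCPU differed between PERK -/- and WT cells for 5140 genes by the edgeR interaction term. Among the genes named, the interaction (PERK -/- minus WT, log2) was positive for the amino acid genes Cth (1.84), Slc6a9 (1.87), Aldh1l2 (1.13), Phgdh (0.98) and Slc7a5 (0.95) and for Trib3 (1.21). It was positive too for Hmox1 (1.11), Rnr1 (1.13), Rnr2 (1.67), Pfkm (2.02), Cyp1b1 (2.90), Ptx3 (2.47), Acot1 (3.84), Kif21b (3.28) and Cdsn (3.12). It was negative for Gadd45g (-2.98), Jun (-1.51), Lif (-1.95), Tnfaip3 (-3.05), Dennd3 (-2.31) and the linker histone Hist1h1c (-4.41). Ddx3y (-5.58) is Y-linked and was at or near 0 in PERK -/- libraries, and this call was lost without BtdCPU replicate 2. Stmn4 (-5.91) and Hist1h2bn (-5.25) had between 0 and a few counts in the WT BtdCPU libraries, so these 2 fitted values and that of Ddx3y depend on the prior count of the fit and are no bound.

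The contrast differed with thapsigargin in PERK -/- cells for 325 genes. The interaction (with minus without thapsigargin, log2) was negative for the stress genes Ppp1r15a (-1.63), Atf3 (-1.61), Gadd45a (-1.35), Ddit3 (-1.16), Sqstm1 (-1.18) and Hmox1 (-1.60), for Aldh1l2 (-1.12) and the transporters Slc3a2 (-1.59) and Slc6a9 (-1.38), and for Kif21b (-2.45), Cdsn (-2.56) and Car6 (-2.43). It was positive for the sterol genes Hmgcs1 (1.92), Insig1 (1.68) and Dhcr7 (1.25), for Jun (1.47), Phlda1 (1.27) and Cx3cl1 (1.59), and for Tep1 (2.43), Ctgf (2.07) and Cebpd (2.06). Ddit3, Dhcr7, Tep1, Ctgf and Car6 lost this call when 1 library was left out, and Tep1 was at most 1.5 CPM in the libraries compared.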

How the results depend on the processing

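For halofuginone against BtdCPU in PERK -/- cells, the count of 5793 genes was 5551 to 6189 with other scalings, no filter or DESeq2, 7329 with the replicate block, 6637 in the 6 libraries, 7116 in the 18 PERK -/- libraries, and 4436 to 5455 when 1 library was left out. The count of 5140 genes that differed between genotypes was 5052 to 5539 with other scalings, no filter or DESeq2, 6894 with the block, 4002 in the 12 libraries compared, and 4219 to 5208 on leaving out 1. The 325 genes that differed with thapsigargin became 667 with no filter, 549 with DESeq2, 869 in the 12 libraries and 1133 with the replicate block, and ranged from 124 to 270 on leaving out 1 library. The cause of these changes was not tested. Same-numbered halofuginone and BtdCPU libraries correlated at 0.171, 0.214 and 0.071 in PERK -/-, 0.043, 0.399 and 0.573 in WT, and 0.264, 0.451 and 0.513 with thapsigargin, and nothing in the labels says that a number marks a shared batch, so the block was kept as an alternative only. No named gene reversed. Of 158 genes named with values, 7 lost the call under another setting and 19 on leaving out 1 library, each given beside its result. Of 429 list medians under alternatives, 406 moved by less than 1 SD, and 6 changed sign, in the mitochondrial chaperone and mitochondrial ribosomal protein lists, whose medians are near 0. Leaving out a library also lowers the power of the test. Depth limits the scarce genes: 30 of 66 histone genes averaged below 0 on the log2 CPM scale, and 5 tested list members had at most 3 counts in each of the 6 libraries.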
